A study of Mus musculus with 18 samples.

Results

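Peripheral sensory neurons detect damaged tissue in part through the ATP and the protons that injured cells release. This report covers 10 genes that encode receptors for these signals: the ATP-gated P2X channels *P2rx3*, *P2rx2*, *P2rx4* and *P2rx7*, the nucleotide-activated G protein-coupled P2Y receptors *P2ry1*, *P2ry2* and *P2ry12*, and the acid-sensing ion channels (ASICs) *Asic1*, *Asic2* and *Asic3*. The members were taken by symbol, and all 10 were found among the 36737 genes of the expression table. They were measured by RNA-seq in L3–L5 dorsal root ganglia (DRG) of CD1 mice, an outbred stock, with 1 library per mouse. The 3 groups were sham surgery, tibial fracture with vehicle and tibial fracture with protectin DX (PDX), a lipid mediator derived from docosahexaenoic acid. Each group held 6 mice, 3 males and 3 females, for 18 libraries in all. The fracture groups were sampled on day 3. The day of the sham group and the dose of PDX in these mice are not given in the sources used here.

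P2X receptors are cation channels of 3 subunits that open when extracellular ATP binds. P2X3, alone or together with P2X2, is known for the ATP current of small nociceptors, many of them nonpeptidergic. P2X4 and P2X7 are best known from macrophages, microglia and glia, where P2X7 responds to high ATP and drives inflammasome activation. P2Y1 responds to ADP, P2Y2 to ATP and UTP, and P2Y12, an ADP receptor, is a marker of microglia and platelets and is also found on satellite glia. ASICs are channels of 3 subunits opened by protons. ASIC3 is the subunit best known from muscle and joint afferents, and ASIC1 and ASIC2 combine with it in heteromeric channels.

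The tissue label was checked against marker genes. The 10 markers of all sensory neurons, among them *Tubb3* and *Uchl1*, summed to between 8224 and 9669 CPM (counts scaled to the library size) in the 18 libraries, and the 14 macrophage markers, among them *C1qa* and *C1qb*, to between 102 and 159 CPM. Erythroid markers ranged from 504 to 2896 summed CPM over the libraries. Markers of placenta, a tissue foreign to a ganglion, were present in all 18 libraries of both sexes, at 162 to 530 summed CPM after sham surgery, 28.7 to 250 after fracture and 26.6 to 129 after fracture with PDX. The libraries held 63235040 to 82824942 counted reads. The least abundant member, *P2rx2*, had at least 225 counts in every library, so that all 10 members entered every test.

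The levels of the members per transcript length spanned a wide range. *P2rx3* was the highest, at 57.8 ± 4.96 FPKM (fragments per kilobase of transcript, scaled to the mapped fragments of the library; SD, n = 18). Only 685 of the genes listed had a higher mean. *Asic3* followed at 39.1 ± 5.08 FPKM. *Asic2* stood at 19.5 ± 1.40 and *Asic1* at 15.3 ± 0.927 FPKM. The main nociceptor ATP channel and the 3 proton channels were thus the most abundant members by length. *P2ry1* came next at 11.4 ± 1.06 FPKM and *P2ry2* at 5.83 ± 0.537 FPKM. *P2rx7* (4.11 ± 0.739 FPKM) and *P2rx4* (4.08 ± 0.338 FPKM) could not be ordered, since *P2rx7* was the higher in only 5 of 18 libraries. *P2ry12* had 2.71 ± 0.426 FPKM and *P2rx2* 1.45 ± 0.236 FPKM. Every other pair of neighbours in this order stood in the same order in 18 of 18 libraries. FPKM also rests on the length assigned to each gene, which this agreement does not test. The ranges of *P2ry2* and *P2rx7* overlapped across libraries although *P2ry2* was the higher in each of them.

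**Figure D1:**
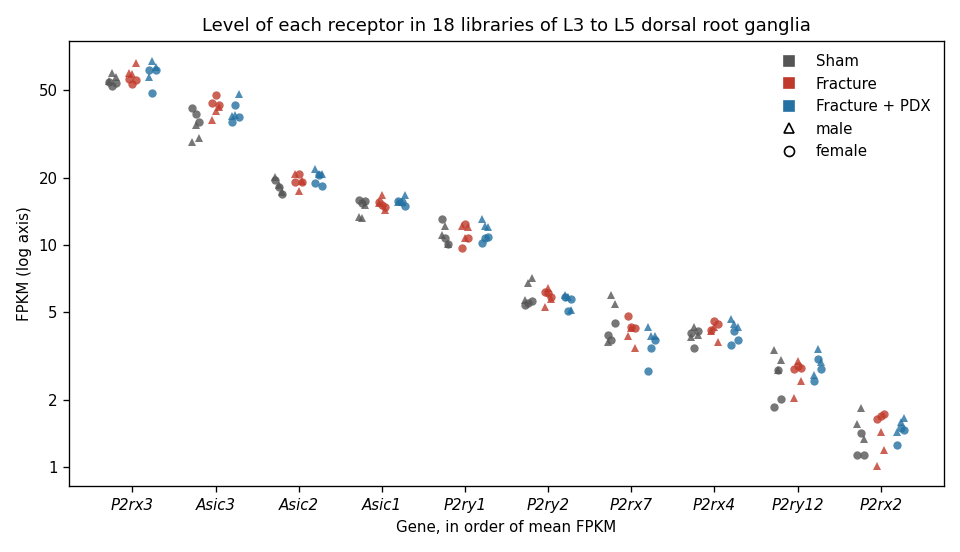
FPKM of the 10 receptors (log axis) in each of 18 libraries, ordered by mean level, with colors for the groups, triangles for males and circles for females. *P2rx3* lies between 48.4 and 67.6 FPKM and *P2rx2* between 1.01 and 1.85 FPKM, and *P2rx7* and *P2rx4* overlap.

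Within the P2X members, *P2rx3* made up most of the summed FPKM. Its share was 84.9% ± 1.1 after sham surgery, 85.5% ± 2.04 after fracture and 86.5% ± 1.80 after fracture with PDX (SD, n = 6 each). *P2rx2*, its partner in heteromeric channels, stayed at 2.15% to 2.16% in the group means, and the ratio of *P2rx3* to *P2rx2* ranged from 31.1 to 58.8 over the libraries of the fracture group. Within the P2Y members, *P2ry1* made up 56.6% ± 4.68 of the FPKM after sham surgery, *P2ry2* 30.2% ± 3.11 and *P2ry12* 13.2% ± 2.70. Among the ASIC members *Asic3* was the largest in every group, with 51.1% ± 3.06 after sham surgery, 54.6% ± 2.36 after fracture and 52.6% ± 2.24 after fracture with PDX. Its share ran from 46.4% to 53.9% in the sham libraries and from 50.2% to 56.9% in the fracture libraries, so that the groups overlapped.

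The first comparison asked which receptors changed in the ganglia 3 days after fracture. *Asic3* rose, and it was the only one of the 10 to pass the test (edgeR quasi-likelihood test, Benjamini-Hochberg adjusted p under 0.05 over 20659 genes). Of all genes tested, 603 were called, or 2.92%, and 225, or 1.09%, were called higher after fracture. A single called member does not set the 10 apart from this background. The median log2 fold change of the 10 members was 0.06, beside 0.00 over all genes tested. At an unadjusted p under 0.05 the count was also 1 of 10, where 18.5% of all genes passed.

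In the sham group *Asic3* stood at 77.7, 93.6 and 81.8 CPM in the 3 males and at 109, 102 and 96.3 CPM in the 3 females. After fracture it stood at 99.1, 106 and 114 CPM in males and at 117, 128 and 114 CPM in females. All 3 fractured males were above all 3 sham males, and all 3 fractured females above all 3 sham females. Of all genes tested, 4.06% were apart within both sexes in one direction, and *Asic3* was the 1 of 10 members among them. Across the sexes the groups overlapped, and 4 of 6 fracture libraries were above every sham library. The mean was 93.4 ± 11.9 CPM after sham surgery and 113 ± 9.86 CPM after fracture (SD, n = 6 each). The fitted log2 fold change was 0.28 (SE 0.0541, 95% confidence interval 0.16 to 0.40, adjusted p = 0.0184), a rise of 1.21-fold. The adjusted p was 0.0850 when the model had no sex term and 0.0738 when all 18 libraries were fitted together. It was 0.0518 without sham male replicate 3 and 0.0521 without fracture female replicate 2, with log2 fold changes of 0.26 in both.

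In bulk tissue, fewer cells of a type and less RNA per cell cannot be told apart. The summed neuron markers were higher after fracture, as *Asic3* was. The 10 markers of all sensory neurons summed to 8224 to 8823 CPM in the sham group and to 9202 to 9411 CPM in the fracture group. How many other genes or lists were apart like this was not counted. Single markers of this list had log2 fold changes of 0.06 to 0.17. None of these markers was at 0. Of the 10, 2 were called, where 1.09% of all genes were called higher. They were *Tubb3*, a neuronal tubulin (log2 fold change 0.17, adjusted p = 0.0126), and *Uchl1*, a neuronal ubiquitin hydrolase (0.14, adjusted p = 0.0212). The 11 markers of large myelinated neurons summed to 3789 to 4342 CPM after sham surgery and to 4458 to 4905 CPM after fracture. This sum is weighted to the neurofilament gene *Nefh*, which had 192729 to 278435 counts per library, the most of the 11. *Nefh* was the 1 of these 11 that was called (log2 fold change 0.22, adjusted p = 0.0126), and *Fxyd7* had 0.19 (adjusted p = 0.0999). The log2 fold changes of the 11 ran from 0.03 to 0.35. The mean log2 CPM of the 10 markers of all sensory neurons was higher by 0.12 after fracture. Relative to that mean, the difference in *Asic3* was 0.17 on the log2 scale (exact permutation test within sex, p = 0.035, one of 30 such tests over the members and comparisons, unadjusted), smaller than in plain CPM. On this scale the groups overlapped within each sex. Fracture male replicate 1, at -2.22, was below sham male replicate 2, at -2.15, and fracture female replicate 3, at -2.01, was below sham female replicate 2, at -1.99. The same calculation gave negative differences for the other 9 members, between -0.21 for *P2rx7* and -0.01 for *P2rx4*. The same permutation test did not tell these 9 apart from no difference. Its unadjusted p ran from 0.225 for *P2ry2* to 0.870 for *P2rx4*. The share of all genes with a negative difference on this scale was not counted. This scaling was added after the data were seen.

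**Figure D2:**
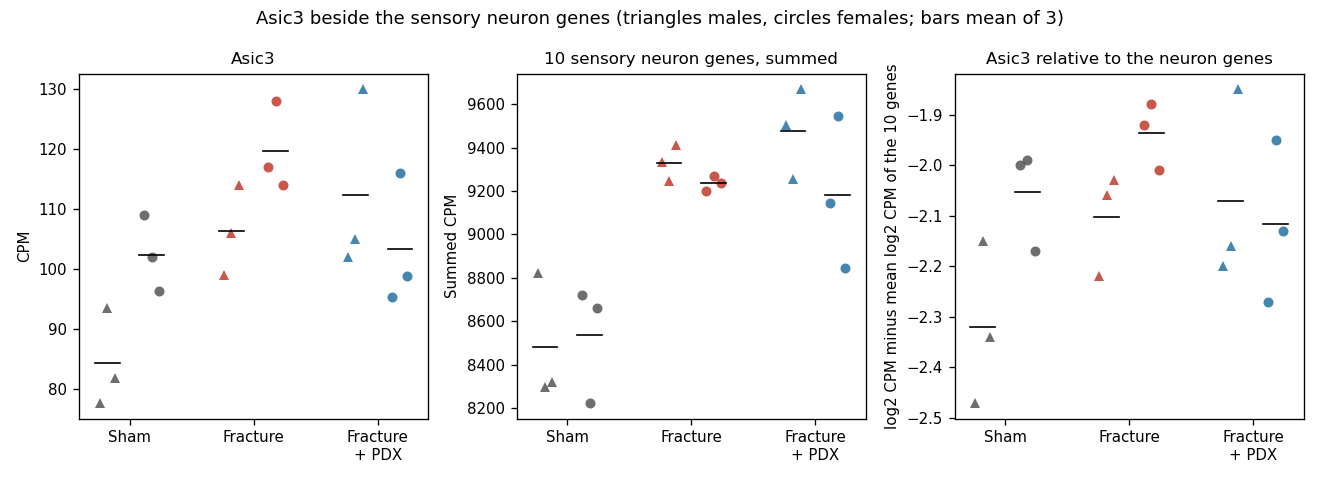
*Asic3* in CPM (left), the summed CPM of 10 sensory neuron genes (middle) and log2 CPM of *Asic3* minus the mean log2 CPM of those genes (right), per library, with triangles for males, circles for females and bars for the mean of 3; the axes do not start at 0. *Asic3* runs from 77.7 to 109 CPM in sham and from 99.1 to 128 CPM in fracture libraries. The summed neuron genes run from 8224 to 8823 CPM in sham and from 9202 to 9411 CPM in fracture libraries.

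Other contents of the libraries moved as well, and the counts of called markers stand beside 2.92% of all genes called and 1.09% called higher. The macrophage markers summed to 134 to 159 CPM after sham surgery and to 102 to 138 CPM after fracture, and 2 of 14 were called lower. The endothelial and mural markers summed to 321 to 368 CPM and to 258 to 316 CPM, with 2 of 9 called lower. The called genes, named after their values were seen, were *Csf1r* and *Adgre1* of macrophages and *Cdh5* and *Flt1* of endothelium. The neutrophil markers had a median sum of 176 CPM after sham surgery and 104 CPM after fracture, and 1 of 10 was called lower (*Cxcr2*, also named after its value was seen). The skeletal muscle markers had median sums of 154 and 440 CPM with overlapping ranges, and 0 of 9 were called, at a median log2 fold change of 2.09; this list holds *Pvalb*, which large myelinated neurons express too. Of the satellite glia markers 1 of 9 was called higher (*Ednrb*), at a list median log2 fold change of 0.08. Of the peptidergic nociceptor markers 1 of 9 was called higher (*Adcyap1*), at a median of 0.06. Both genes were named after their values were seen. The part of these cells in the *Asic3* result was not tested. Of 8 axon injury genes, which include *Gal* and *Jun*, 6 were called higher, while *Gal* itself had a log2 fold change of 1.41 (adjusted p = 0.215) and *Jun* of 0.01 (adjusted p = 0.929). When the placenta markers entered the model as a covariate, a step chosen after the data were seen, the log2 fold change of *Asic3* was 0.17 (adjusted p = 0.657), and of all genes 1 was called in place of 603. Placenta genes and group go together in these libraries, and the part of either in the result was not tested further.

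*Asic3* lies on chromosome 5 at chr5:24413392-24417834, plus strand, in the mm10 coordinates of the files, and no other gene of the GENCODE M21 annotation overlaps it. As the member that carries the difference, its upstream sequence is shown, from the RefSeq promoter window of build GRCm38.p6 and as far as the start in the table, chr5:24413201-24413391 on the plus strand. Capitals mark the one motif found in it, TGTGGT, the letters of a Runx site.
Asic3 upstream: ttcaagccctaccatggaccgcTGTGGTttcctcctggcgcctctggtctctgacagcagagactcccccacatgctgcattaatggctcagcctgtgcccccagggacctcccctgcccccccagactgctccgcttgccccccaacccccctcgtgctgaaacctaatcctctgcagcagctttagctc
Windows of 300 bases were given for 8 of the 10 members, 11 windows in all, and each was searched on both strands for 6 motifs. TGTGGT was in 1 of the 11 windows (*Asic3*) and in 16.8% of all 32851 promoter windows. The AP-1 site TGACTCA was in 1 (*P2rx7*; 5.2% of all), the E-box CAGCTG in 1 (*P2ry12*; 16.3%), the TATA box TATAAA in 1 (*Asic2*; 13.6%) and the CRE core TGACGTCA in 0 (1.79%). The GC box GGGCGG was in 5 windows, of *P2rx4*, *P2rx7*, *P2ry1* and *P2ry2*, and in 35.7% of all. These matches describe letters only.

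The other ASIC members did not pass the test after fracture. *Asic1* had a lowest, median and highest value of 84.6, 95.8 and 101 CPM after sham surgery and of 92.6, 98.0 and 105 CPM after fracture. *Asic2* had 80.6, 86.4 and 95.3 CPM and then 82.4, 91.7 and 99.5 CPM. Both genes overlapped between the groups. The log2 fold changes were 0.07 for *Asic1* (95% confidence interval -0.04 to 0.17, adjusted p = 0.531) and 0.09 for *Asic2* (-0.03 to 0.20, adjusted p = 0.414).

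Of the P2X members, *P2rx3* had 157, 168 and 184 CPM (lowest, median and highest) after sham surgery and 165, 176 and 207 CPM after fracture. Only 2 of 6 fracture libraries were above every sham library. Its log2 fold change was 0.08 (95% confidence interval 0.00 to 0.16, adjusted p = 0.278), which leaves room for a rise of up to 1.12-fold. The 11 markers of the nonpeptidergic nociceptors, the cells best known for P2X3, summed to 1368 to 1561 CPM after sham surgery and to 1539 to 1772 CPM after fracture. Of these, 2 of 11 were called higher, beside 1.09% of all genes. They were *Ret* (log2 fold change 0.13, adjusted p = 0.0283) and *Agtr1a* (0.36, adjusted p = 0.0285), the latter named after its value was seen. *Mrgprd* had 0.23 (adjusted p = 0.301). *P2rx4*, the channel of microglia and macrophages that is also found in neurons, had 26.1, 30.8 and 33.4 CPM and then 28.8, 32.6 and 35.6 CPM, a log2 fold change of 0.10 (-0.04 to 0.23, adjusted p = 0.444). *P2rx7* had 23.9, 27.5 and 39.6 CPM and then 23.0, 27.9 and 31.3 CPM. Its sham libraries were more spread than its fracture libraries, and the log2 fold change was -0.11 (-0.40 to 0.18, adjusted p = 0.728). *P2rx2* had 3.17, 3.90 and 5.33 CPM and then 2.91, 4.38 and 4.95 CPM, with a log2 fold change of 0.05 (-0.31 to 0.41, adjusted p = 0.911).

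The P2Y members had the smallest log2 fold changes after fracture. *P2ry1* had 48.1, 51.2 and 60.9 CPM after sham surgery and 45.7, 54.5 and 59.4 CPM after fracture. *P2ry2* had 22.9, 24.5 and 31.2 CPM and then 23.0, 25.8 and 27.6 CPM, and *P2ry12* had 5.17, 7.67 and 9.44 CPM and then 5.83, 7.79 and 8.36 CPM. The ranges of each gene lay over one another. The log2 fold changes were 0.02 (-0.15 to 0.19), -0.01 (-0.17 to 0.15) and 0.03 (-0.27 to 0.34), and the lowest adjusted p of the 3 was 0.926. An antisense gene, *Gm37035*, shares 23.1% of the exonic bases of *P2ry1* on the opposite strand. The counting of strand is not given in the sources used here, so that reads of the 2 genes may not be told apart, although *Gm37035* had 48 to 113 counts per library and *P2ry1* 3391 to 4782.

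**Figure D3:**
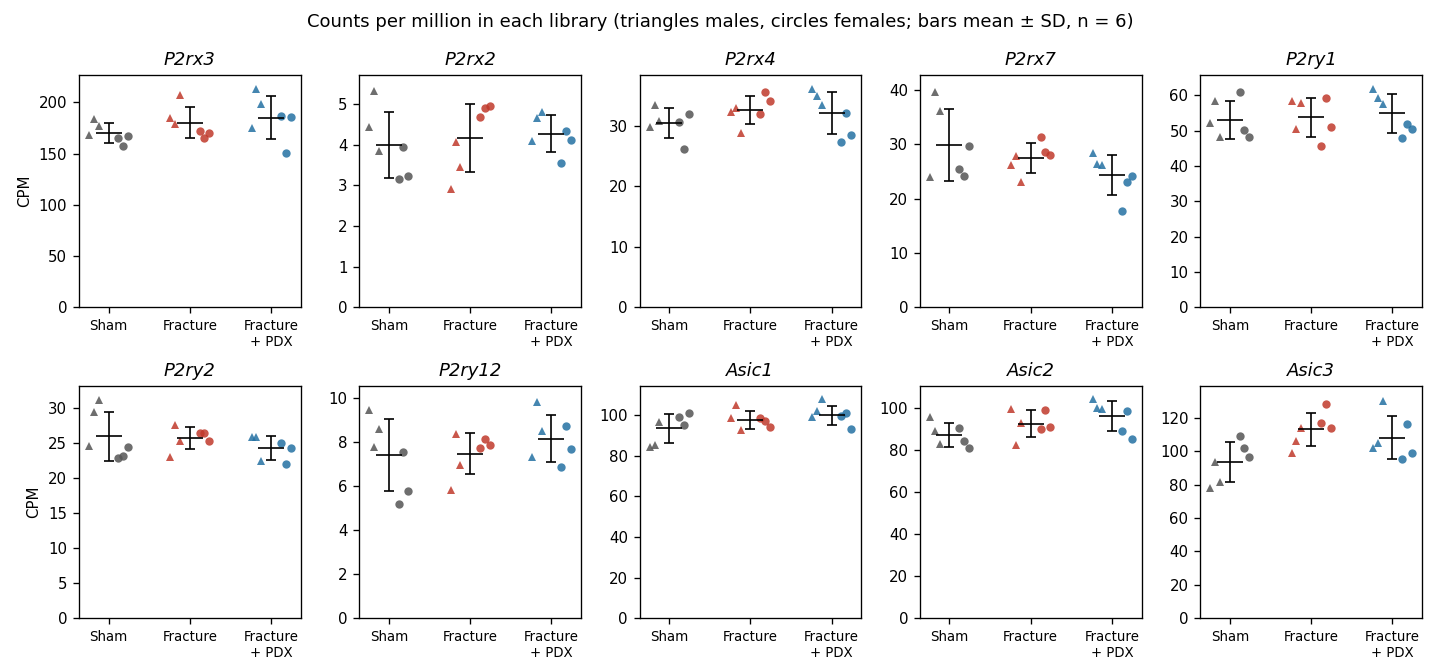
CPM of each receptor in the sham, fracture and fracture plus PDX groups, 1 point per library, triangles for males and circles for females, with the mean and SD of 6; axes start at 0. Only *Asic3* is separated within both sexes between sham and fracture, while the points of the other 9 receptors overlap in at least 1 sex.

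The second comparison asked what PDX treatment changed in fractured mice. No member was called between fracture with PDX and fracture with vehicle. With edgeR, 0 of 10 members and 0 of 20562 genes were called (0%), and at an unadjusted p under 0.05 the counts were 0 of 10 members and 1113 genes, or 5.41%. DESeq2 called 0 of 10 members and 21 genes. The median log2 fold change of the members was 0.04, beside 0.00 over all genes.

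*Asic3* stood at 102, 105 and 130 CPM in the 3 treated males and at 95.3, 116 and 98.8 CPM in the 3 treated females. The treated males lay within or above the range of the fractured males, and 2 of 3 treated females lay below that of the fractured females. The log2 fold change was -0.06 (SE 0.0798, 95% confidence interval -0.23 to 0.11, adjusted p = 0.981), so that a fall of *Asic3* to 0.850 of the fracture level or a rise of 1.08-fold would both lie within the interval. *P2rx3* had 151, 187 and 213 CPM after PDX, as lowest, median and highest, and a log2 fold change of 0.05 (-0.08 to 0.18, adjusted p = 0.980). The lowest adjusted p of the 10 members, 0.917, was that of *P2rx7*, which had 17.8, 25.1 and 28.3 CPM after PDX and a log2 fold change of -0.18 (-0.40 to 0.04). The remaining members ranged from -0.07 for *P2ry2* to 0.13 for *P2ry12*. The widest interval was that of *P2rx2*, -0.23 to 0.35, and the narrowest that of *Asic1*, -0.04 to 0.12.

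Set against sham surgery, which shares its libraries with the comparisons above, mice with fracture and PDX showed no called member either. The count was 0 of 10 with edgeR and 0 of 10 with DESeq2, where edgeR called 925 of 20574 genes, or 4.50%. At an unadjusted p under 0.05, 5 of 10 members passed, where 18% of all genes did. These 5 were *Asic2* (log2 fold change 0.15, SE 0.0468, adjusted p = 0.102), *P2rx7* (-0.29, SE 0.113, adjusted p = 0.195), *Asic3* (0.22, SE 0.0934, adjusted p = 0.238), *P2rx3* (0.13, SE 0.0570, adjusted p = 0.249) and *Asic1* (0.11, SE 0.0493, adjusted p = 0.264). The median of the members was 0.11, beside 0.00 over all genes, and the neuron markers were higher by 0.12 in mean log2 CPM here too. Relative to the neuron markers, the difference in *Asic3* was 0.09 (exact permutation test within sex, p = 0.370) in place of 0.21 in plain log2 CPM, and that in *P2rx7* was -0.40 (exact permutation test, p = 0.030, unadjusted) in place of -0.28. *P2rx7* was called when sham male replicate 1 was left out, with a log2 fold change of -0.37 and an adjusted p of 0.0273. That library had the lowest *P2rx7* of the sham group, 23.9 CPM, while the other 2 sham males had the highest, 39.6 and 36.0 CPM.

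**Figure D4:**
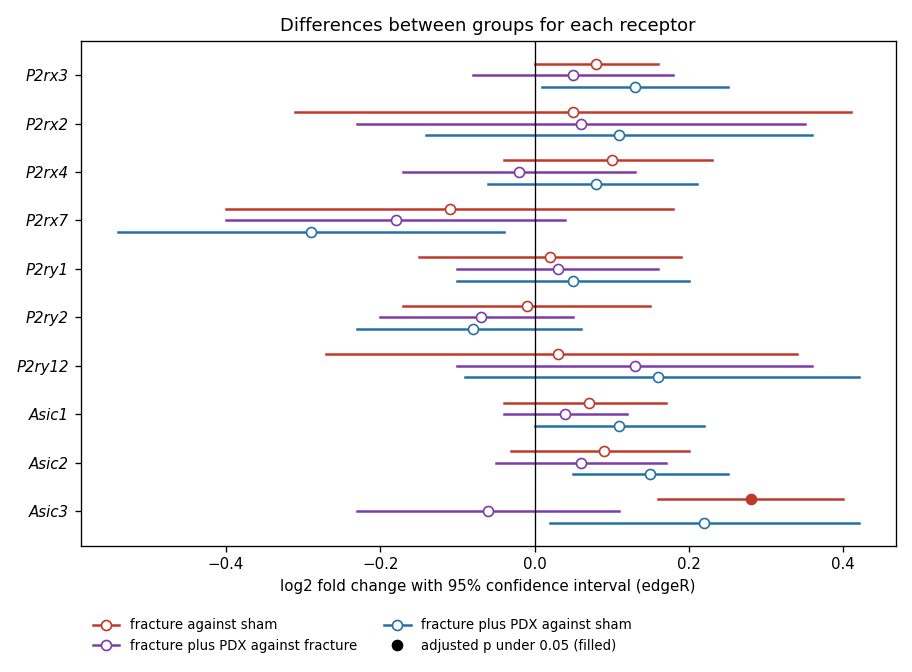
Log2 fold change of each receptor with its 95% confidence interval (edgeR) for fracture against sham, fracture plus PDX against fracture and fracture plus PDX against sham; filled circles mark an adjusted p under 0.05. *Asic3* after fracture, at 0.28 with an interval of 0.16 to 0.40, is the one filled circle, and all 10 intervals of PDX against fracture include 0.

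Each group held both sexes, and the sexes were compared over all 18 libraries with group in the model. No member was called by edgeR or DESeq2 (0 of 10), while 61 of 20527 genes, or 0.297%, were called by edgeR. At an unadjusted p under 0.05, 1 of 10 members passed, beside 10.4% of all genes. This was *P2rx3*, which had 187 ± 15.2 CPM in 9 males and 169 ± 11.9 CPM in 9 females, a log2 fold change of 0.15 (SE 0.0427, adjusted p = 0.168). In the 6 sham libraries alone, 5 of 10 members passed at an unadjusted p under 0.05 and 0 were called. The share of all genes passing unadjusted there was not counted. The sham libraries also enter the fracture interactions below. *Asic3* had a log2 fold change of -0.11 between males and females (adjusted p = 0.613), and the other 8 members lay between -0.02 and 0.15.

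Whether the fracture difference itself differed between the sexes was tested by an interaction term. It was called for 0 of 10 members and for 0 of 20659 genes (0%). At an unadjusted p under 0.05, 5 of 10 members passed, beside 7.20% of all genes tested, and DESeq2 also gave 5 of 10 unadjusted and called 0 of 10. The lowest adjusted p of the members was 0.519, so that none of the differences below holds after adjustment. Of the 5, *P2rx2*, *P2ry12*, *P2rx7* and *P2ry2* had a more negative difference in males, and *Asic1* a more positive one.

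*P2rx2* stood at 4.44, 5.33 and 3.85 CPM in sham males and at 2.91, 4.07 and 3.45 CPM in fractured males. In females it stood at 3.17, 3.95 and 3.23 CPM after sham surgery and at 4.68, 4.91 and 4.95 CPM after fracture. The females of the 2 groups did not overlap, and 2 of 3 fractured males were below every sham male. The interaction of *P2rx2* was -0.87 on the log2 scale (95% confidence interval -1.39 to -0.35, adjusted p = 0.519). The females of *P2rx4*, *P2ry2*, *P2ry12* and *Asic3* did not overlap either. The share of all genes apart within 1 sex was not counted. *P2ry12* was higher in all 3 fractured females than in every sham female, by 0.38 in mean log2 CPM, and lower by 0.30 in males (interaction -0.64, adjusted p = 0.616). *P2rx7* differed by 0.15 in females and -0.34 in males, and *P2ry2* by 0.15 in females and -0.16 in males. *Asic3* was higher after fracture in both sexes, by 0.34 in males and 0.22 in females, and its interaction was 0.12 (-0.11 to 0.35, adjusted p = 0.861).

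For PDX against fracture, the interaction with sex was called for 0 of 10 members and for 1 of 20562 genes, or 0.00486%. At an unadjusted p under 0.05, 3 of 10 members passed, beside 4.14% of all genes, and their lowest adjusted p was 0.998. DESeq2 called 0 of 10, with 4 of 10 unadjusted. The 3 members were the P2X channels *P2rx2*, *P2rx4* and *P2rx7*, with interactions of 0.65, 0.35 and 0.50 on the log2 scale. *P2rx4* stood at 36.1, 35.0 and 33.5 CPM in treated males, above the 32.3, 33.0 and 28.8 CPM of fractured males. In treated females it stood at 27.3, 32.2 and 28.5 CPM, and in fractured females at 32.0, 35.6 and 34.1 CPM, with a single treated female inside the range of the fractured ones. *P2rx7* stood at 17.8, 23.0 and 24.1 CPM in treated females, below all 3 fractured females at 31.3, 28.6 and 28.0 CPM, while treated males, at 28.3, 26.3 and 26.1 CPM, overlapped with fractured males. *P2ry2* was also lower in every treated female than in every fractured female. The share of all genes apart within 1 sex was not counted here either. *P2rx2* was the 1 of 10 members apart within both sexes in opposite directions, beside 0.433% of all genes. The fractured mice are shared with the comparison against sham, so that the opposite signs of the 2 interactions are not independent of each other.

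**Figure D5:**
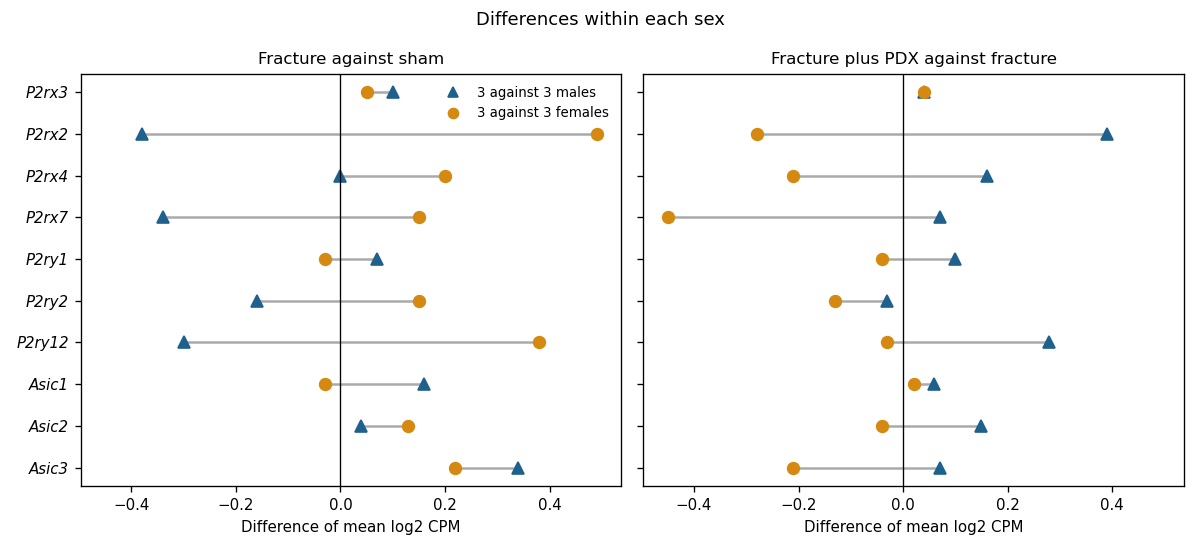
Difference in mean log2 CPM within males (triangles) and within females (circles), 3 against 3 mice, for fracture against sham (left) and fracture plus PDX against fracture (right). For *P2rx2* the fracture difference is -0.38 in males and 0.49 in females, and the PDX difference is 0.39 in males and -0.28 in females; for *Asic3* both sexes are above 0 after fracture.

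Genes of the same pathways were read from 7 lists with 42 genes in the table: other P2X and P2Y receptors, adenosine receptors, ecto-nucleotidases and adenosine kinase, ATP release, ASIC relatives and partners, and proton-sensing G protein-coupled receptors. Of these, 37 passed the filter for the fracture comparison, 1 was called higher and 2 were called lower, where 2.92% of all genes were called. *Nt5e* (CD73), which makes adenosine from AMP, rose from 5.88 ± 0.308 to 6.63 ± 0.287 FPKM (log2 fold change 0.18, adjusted p = 0.0204). *Ada*, which deaminates adenosine, fell from 5.84 ± 1.49 to 2.82 ± 0.706 FPKM (-1.04, adjusted p = 0.0212). *Calhm2*, of the CALHM channel family, fell from 1.39 ± 0.185 to 1.02 ± 0.104 FPKM (-0.43, adjusted p = 0.0445). *Ada* is a gene that placenta expresses at high levels, and the summed placenta markers were lower after fracture too; the part of that tissue in the *Ada* value was not tested. With the placenta covariate, a fit that called 1 of all 20659 genes, none of the 3 was called, and the log2 fold changes were 0.21 for *Nt5e*, -0.34 for *Ada* and -0.57 for *Calhm2*. *Ada* was not called without sham male replicate 3 or without fracture female replicate 2, and *Nt5e* was not called without sham female replicate 2 or without fracture male replicate 3. *Calhm2* was called in 2 of 12 fits that left out a library, those without sham male replicate 1 and without fracture male replicate 3.

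In the other pathway genes no call was made after fracture. *P2rx6* had 8.26 FPKM over the 18 libraries and a log2 fold change of 0.03, and *P2rx5* had 4.97 FPKM and 0.30 (adjusted p = 0.123). Among adenosine receptors *Adora1* was the highest at 10.3 FPKM, with a log2 fold change of 0.01. *Entpd3*, an ATP-degrading ectoenzyme, had 35.3 FPKM and 0.12, and *Acpp*, the prostatic acid phosphatase of nonpeptidergic nociceptors, had 41.7 FPKM and 0.16. The ATP-permeable channels *Panx2* and *Panx1* had 22.0 and 9.63 FPKM and log2 fold changes of 0.12 and 0.11. *Stoml1*, a stomatin relative that binds ASICs, had 40.2 FPKM and 0.11. The proton-sensing receptors were low throughout, the highest being *Gpr4* at 0.907 FPKM. For PDX against fracture 0 of the 37 pathway genes tested were called. For PDX against sham 1 was called higher and 2 lower, where 4.50% of all genes were called. *Stom*, of the list of ASIC relatives and partners, was higher (9.68 ± 1.02 after sham surgery and 12 ± 1.36 FPKM after PDX, log2 fold change 0.33, adjusted p = 0.0370). *Ada* (-1.19, adjusted p = 0.00212) and *Calhm2* (-0.35, adjusted p = 0.0410) were lower. With the placenta covariate, which left 0 of all 20574 genes called, the log2 fold changes were 0.09 for *Stom*, -0.55 for *Ada* and -0.25 for *Calhm2*. *Ada* was called in 12 of 12 fits that left out a library. *Stom* was called in 4 of 12, those without sham male replicate 1 or without PDX male replicate 1, PDX male replicate 3 or PDX female replicate 2, and *Calhm2* in 2 of 12, those without sham male replicate 1 and without sham female replicate 1.

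Genes with the most similar pattern to each member were sought over the 18 libraries, among about 12378 genes with a mean of at least 5 CPM, as Pearson's r of log2 CPM after removing the mean of each group and sex. The libraries share depth and tissue content, and the highest of so many values is high by selection, so that these are descriptions. *Asic2* had the closest partners, *Bmerb1* (r = 0.93), *Eepd1* (0.92) and *C77080* (0.91), and *Asic1* followed with *Mark3* (0.91). For *P2ry2* the closest was *Gm38910* (0.89), for *P2rx3* *Oard1* (0.87), for *Asic3* *Rpl26* (0.86), for *P2rx7* *Pkdcc* (0.86) and for *P2ry12* *Them4* (0.86). For *P2rx2* it was *Rhbdf1* (0.84), for *P2ry1* *Lrrc47* (0.82) and for *P2rx4* *Zfp128* (0.82). No member was among the 3 genes most alike to another member.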

How the data were processed

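Sequencing libraries of poly(A) RNA (strand-specific, paired-end) were made from 18 mice. The submitters' processing notes name cutadapt 1.10, FastQC, HISAT2 and StringTie with mm10; the counting step is not given in the sources used here. The authors deposited raw counts per gene and FPKM values of the same 36737 genes. Columns named Con were read as the sham group. The counts were filtered with filterByExpr (minimum count 10, minimum total 15), scaled by TMM and tested with edgeR 4.0.16 (quasi-likelihood, robust) in R 4.3.3. Each comparison used its 12 libraries with sex in the model, and the sexes were compared over 18 libraries with group in the model. P-values were adjusted by Benjamini-Hochberg over all genes, with calls under 0.05. CPM values carry TMM factors, and log2 CPM a prior count of 2. Levels are compared between genes only as FPKM. Alternatives used DESeq2 1.42.0 and limma 3.58.1. The fits were tested on simulated data. All 45 pairs of libraries within a group differed by more than counting noise, so none was counted as a duplicate.

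The 10 members and all lists were chosen with earlier results of these data known. Named genes are the 10 members, the called genes of the pathway lists or otherwise up to 3 with the highest FPKM, up to 2 genes per marker list shown, and the most similar genes. The mice are separate animals; mice of the same number do not share a labelled origin.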

Additional observations from a re-analysis of the deposited data

Results flagged for a closer look

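*P2rx2* in fracture plus PDX against fracture was singled out because the 2 groups were apart within both sexes, in opposite directions. The mice of the groups are separate animals. The same was seen for 89 of 20562 genes, or 0.433%. The gene was picked by this pattern, so the interaction below restates the same values. All 3 treated males, at 4.10, 4.66 and 4.82 CPM, were above all 3 fractured males, at 2.91, 4.07 and 3.45 CPM. All 3 treated females, at 3.55, 4.34 and 4.13 CPM, were below all 3 fractured females, at 4.68, 4.91 and 4.95 CPM. The interaction of sex was 0.65 on the log2 scale (95% confidence interval 0.18 to 1.11) and did not pass the adjustment over all genes (edgeR adjusted p = 0.998). *P2rx2* is the least abundant member, at 225 to 425 counts per library. No member had a library that stood apart from the other 5 of its group by Dixon's criterion.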

How the results depend on the processing

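The call of *Asic3* after fracture was made under DESeq2, upper-quartile scaling, both filters, limma on FPKM and the replicate block, with log2 fold changes of 0.26 to 0.28. The count of called members after fracture was 0 without a sex term, 0 with all 18 libraries in one fit and 0 with the placenta covariate, and ranged from 0 to 1 when each library was left out. After PDX against sham that range was also 0 to 1, through *P2rx7*. No other setting gave a called member, in the interactions of sex either. For the pathway lists the count after fracture was 3 and became 0 with the replicate block, 0 with the placenta covariate and 1 to 3 when a library was left out. For PDX against sham it was 3 and became 1 with the block, 0 with the covariate and 1 to 4 when a library was left out. For the sexes it was 0, and 1 (*Acpp*) with DESeq2, with 0 to 1 when a library was left out. The cause of these changes was not tested.

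Mice of one sex with the same number deviated together only in part (r from -0.16 to 0.35 over the 3 comparisons, and 4, 3 and 2 of 6 mice correlated best with their own number), so the number was not treated as pairing. As a replicate block it kept 1 called member after fracture (*Asic3*, adjusted p = 0.0450) and 0 in the other comparisons, while 118 genes were called after fracture in place of 603 and 486 for PDX against sham in place of 925. DESeq2 called 1476, 21, 1579 and 324 genes for fracture against sham, PDX against fracture, PDX against sham and the sexes. Limma called 401 or 375 genes after fracture, at pseudocounts of 1 or 0.1, and the placenta covariate left 1 and 0 genes against sham. The sexes gave 31 genes without a group term and 11 in the sham libraries alone. Leaving out a library gave 213 to 710 genes after fracture, 0 to 1 for PDX against fracture, 498 to 1008 for PDX against sham and 25 to 79 for the sexes.

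Signs changed only for members that were not called. Relative to the neuron list, fracture differences became -0.04 (*P2rx3*), -0.06 (*P2rx2*), -0.01 (*P2rx4*), -0.09 (*P2ry1*), -0.08 (*P2ry12*), -0.05 (*Asic1*) and -0.03 (*Asic2*), and those of PDX against sham -0.01 (*P2rx2*), -0.04 (*P2rx4*), -0.07 (*P2ry1*) and -0.01 (*Asic1*). With the placenta covariate *P2ry1* became -0.06 after fracture, *P2rx4* 0.01 for PDX against fracture and *P2rx3* -0.06 for PDX against sham. In the sham libraries alone *P2ry1* had 0.00 between the sexes. With a library left out, *P2rx2* ranged from -0.03 to 0.15, *P2ry1* from -0.02 to 0.07, *P2ry2* from -0.04 to 0.04 and *P2ry12* from -0.06 to 0.12 after fracture. For PDX against fracture, *P2rx2* ranged from -0.03 to 0.13, *P2rx4* from -0.07 to 0.02 and *P2ry1* from 0.00 to 0.09, and for the sexes *P2rx2* from -0.03 to 0.10 and *Asic1* from -0.04 to 0.00.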
